A study of Mus musculus with 24 samples.

Results

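Interleukin 15 (Il15) and the 3 chains of its receptor, Il15ra, Il2rb and Il2rg, were followed through 24 libraries of mouse peritoneum carrying peritoneal metastasis, meaning tumour that has spread to the lining of the abdomen. The 4 genes were taken by name from a table of 56422 gene names, and all 4 were among the 15163 genes tested. The table was in TPM, a length-corrected share of the transcripts of each library scaled to a fixed total of 1000000. Il15 was picked because earlier results of these libraries showed it higher with propionate than without treatment. Its contrasts that involve the control or propionate libraries are therefore given as a description with no p.

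The samples formed 4 groups of 6: a control group labelled as having no treatment, a propionate group, a butyrate group and a group given both, called the combination here. Both acids are short-chain fatty acids, products of bacterial fermentation in the gut. The series title ties the work to mannose, anti-PD-1 therapy and ovarian cancer. The labels used here give no dose, time, strain, age or tumour line, and do not say whether any group received anti-PD-1. They also do not say that replicates came from separate mice, so a p-value here reflects the spread among these libraries alone, part of which may be technical.

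Interleukin 15 is a cytokine that keeps natural killer (NK) cells and memory CD8 T cells alive and dividing. It is unusual in that the cell that makes it presents it on its own high-affinity chain, Il15ra, to a neighbouring lymphocyte. That lymphocyte receives it through Il2rb, shared with interleukin 2, and Il2rg, the common gamma chain shared with interleukins 2, 4, 7, 9 and 21, which signal through Jak1, Jak3 and Stat5. Macrophages, dendritic cells, epithelium and skeletal muscle are known sources of Il15, and muscle fibres also make Il15ra.

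The tissue in the libraries varied. Wt1, a gene of mesothelium (the cell layer lining the peritoneum), split them into 10 libraries at 131 to 368 TPM, of which 5 were controls, and 13 libraries at 0.37 to 71.4 TPM, of which 1 was a control. The first set, called Wt1-high here, held 2 propionate, 1 butyrate and 2 combination libraries, and the second, Wt1-low, held 4, 5 and 3. Krt8, a gene listed here for epithelium and carcinoma, split the same way. It was at 95.56 to 292 TPM in the Wt1-high set and 0.30 to 47.75 TPM in the Wt1-low set. Of the 7 genes of that list, Epcam and Cldn4 were too scarce to be tested, so its score rests on the other 5. In the control, propionate and butyrate libraries Epcam reached at most 0.83 TPM and Cldn4 at most 0.09 TPM. In the combination group they reached 62.6 and 47.5 TPM. Whether the split by Wt1 and Krt8 reflects lining, tumour content or the place sampled was not tested. A skeletal muscle score, the mean log2(TPM + 1) of 20 muscle genes, was 9.16 to 10.96 in the Wt1-high set and 10.7 to 11.8 in the Wt1-low set. Combination replicate 5 stood apart, with Wt1 listed at 0, a muscle score of 1.24 and a T cell score of 5.93, where the other 23 libraries had T cell scores of 0.60 to 2.45. Against its label of peritoneum, this library had 0.0076% of its TPM in the muscle genes. Its mesothelial score was 0.67, with butyrate replicate 1 next lowest at 1.13. Its scores for B cell, adipocyte, and epithelium and carcinoma genes, at 7.98, 9.40 and 5.67, were the highest of all libraries. The combination means and contrasts are given with and without it. In bulk tissue, fewer cells of a type and less RNA per cell cannot be told apart.

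Promoter sequence from RefSeq (build GRCm38.p6) was at hand for Il15ra and Il2rg, which in these libraries differed in level in opposite directions between the Wt1 sets. The 250 bases before the start are shown for 1 start of Il15ra, at chr2:11705043-11705292 on the plus strand, and for Il2rg, at chrX:101268256-101268505 on the minus strand. Il15 and Il2rb are named only. Capitals mark matches on either strand to AANNGAAA (a core bound by interferon regulatory factors) or GGAA (the core of ETS factors).
Il15ra: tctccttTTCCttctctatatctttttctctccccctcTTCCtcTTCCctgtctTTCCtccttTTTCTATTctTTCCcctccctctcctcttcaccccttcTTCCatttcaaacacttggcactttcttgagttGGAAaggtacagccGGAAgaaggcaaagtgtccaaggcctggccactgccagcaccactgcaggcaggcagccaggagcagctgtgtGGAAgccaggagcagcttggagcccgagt
Il2rg: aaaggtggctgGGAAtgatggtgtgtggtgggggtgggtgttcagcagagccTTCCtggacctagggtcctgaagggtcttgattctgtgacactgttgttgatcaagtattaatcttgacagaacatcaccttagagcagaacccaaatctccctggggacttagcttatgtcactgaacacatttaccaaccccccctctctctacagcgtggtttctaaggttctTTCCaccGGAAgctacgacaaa
Il15ra had 1 match to AANNGAAA, whose first base lay 187 bases before the start, and Il2rg had 0. Of 32851 promoter windows of the same length, 21.3% held AANNGAAA. GGAA was found in 93.4% of windows, so its presence in both genes is common to nearly every promoter. Neither window, nor the window of a second Il15ra start at chr2:11705462-11705711, held the STAT-type TTCNNNGAA (7.02% of windows) or an NF-kB motif (7.25%). These are letter matches in a short window and say nothing about binding.

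Il15 itself, the ligand, was higher in most treated libraries than in most controls. In the control libraries Il15 ran from 5.33 through a median of 8.46 to 12.5 TPM. With propionate it ran from 11.6 through 15.1 to 18.2 TPM, and with butyrate from 9.88 through 14.5 to 16.9 TPM. In the combination libraries Il15 ran from 9.55 through 14.9 to 16.9 TPM. The groups overlapped at their edges. Of the 18 treated libraries 14 lay above the highest control (4 with propionate, 5 with butyrate and 5 with the combination), and 0 lay below the lowest control.

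The mean of Il15 was 8.82 ± 2.96 TPM (SD, n = 6) in controls, 14.9 ± 2.64 with propionate, 14.1 ± 2.61 with butyrate and 14.5 ± 2.59 with the combination. The 3 treated means differed by less than the spread between libraries of any 1 treated group. Over all pairs of 1 treated and 1 control library, the treated library was higher in 33 of 36 for propionate, 34 of 36 for butyrate and 34 of 36 for the combination. These 3 comparisons share the same 6 controls, so they are not independent of each other. Combination replicate 5 was the lowest of its group, and the other 5 combination libraries lay at 15.5 ± 1.06 TPM.

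**Figure D1:**
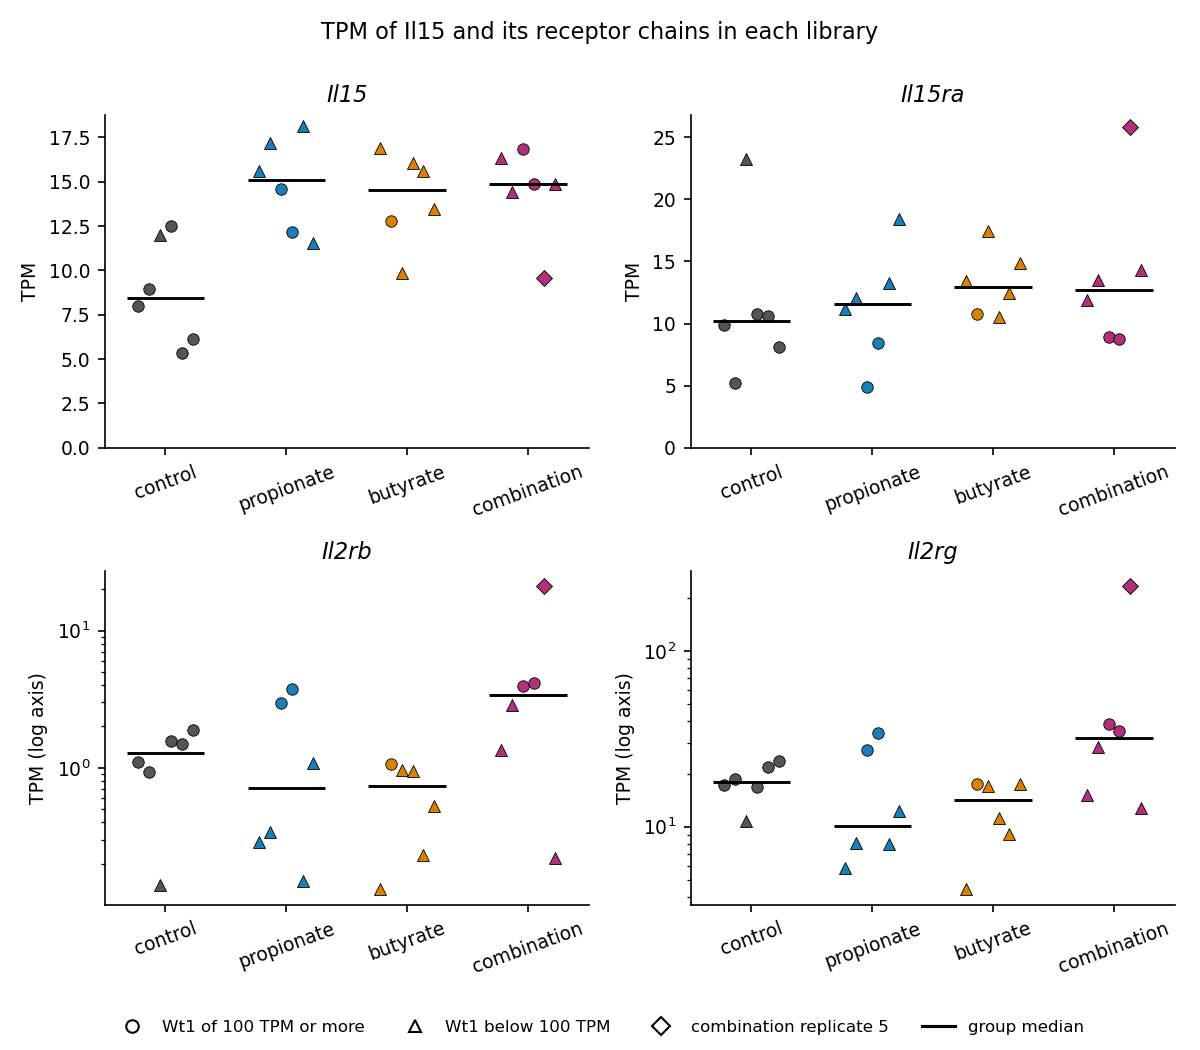
TPM of the 4 genes in each of 24 libraries (y axis, TPM; log axis for Il2rb and Il2rg), by treatment group, with horizontal bars at group medians. Circles are Wt1-high libraries, triangles Wt1-low libraries and the diamond combination replicate 5; the Il15 medians are 8.46 TPM in controls and 14.5 to 15.1 TPM in the treated groups.

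On the log2(TPM + 1) scale, Il15 differed from control by 0.73 ± 0.19 (SE) with propionate, 0.66 ± 0.19 with butyrate and 0.69 ± 0.19 with the combination. Among all tested genes these values stood above 99.5%, 98.7% and 95.3% of the others. The first of these places follows from how Il15 was picked, and the other contrasts share the same controls, so none of the places is a test. Most genes lay below control in the same contrasts: only 20.7%, 21.2% and 34.1% of tested genes had a fold change above 0, and the median over all genes was -0.30, -0.38 and -0.12. The interaction, meaning how far the combination departs from the sum of the changes seen with each acid alone, was -0.70 ± 0.27 for Il15, against a median of 0.62 over all genes. With combination replicate 5 left out, the combination contrast was 0.80 and the interaction -0.59.

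One Il15 contrast used neither controls nor propionate libraries and could be tested. Combination minus butyrate was 0.03 (95% interval -0.36 to 0.43; adjusted p = 0.908, limma). Of all 15163 genes, 0% passed in this comparison (percentage with an adjusted p under 0.05). It was 0.14 without combination replicate 5 (limma, adjusted p = 0.732).

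Set beside tissue content, the Il15 difference is described here for the libraries with Wt1 at 100 TPM or more. These include controls and propionate libraries by which Il15 was picked, so this is not a separate observation. The 5 Wt1-high controls held Il15 at 5.33 to 12.5 TPM, with a mean of 8.17 ± 2.80, and the 5 Wt1-high treated libraries held it at 12.2 to 16.9 TPM, with a mean of 14.3 ± 1.86. The treated library was higher in 24 of 25 such pairs. In the Wt1-low set there was a single control, at 12.02 TPM, inside the range of the treated libraries there (9.88 to 18.2 TPM). With the Wt1 set as a factor and combination replicate 5 left out, the Il15 contrasts with control were 0.64, 0.54 and 0.72 for propionate, butyrate and the combination.

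Muscle is a known source of Il15, and the relation of Il15 to the muscle score was weak in both sets. By group, the median muscle score was 10.8 in controls, 11.3 with propionate, 11.1 with butyrate and 10.6 with the combination (10.95 without combination replicate 5), with overlapping ranges. Across the 10 Wt1-high libraries Pearson's r was -0.21 (permutation p = 0.549; Spearman's rho -0.21, permutation p = 0.56), and -0.27 without the 2 libraries farthest from the median score. Across the 13 Wt1-low libraries r was 0.36 (permutation p = 0.233; rho 0.43, permutation p = 0.146), and 0.22 without the farthest 2. Benjamini-Hochberg adjusted over the family of 96 relations (4 genes, 12 marker scores and 2 sets), these permutation p-values for r became 0.764 and 0.407. A weak relation to muscle could therefore not be told from no relation over these libraries.

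Within the control, propionate and butyrate groups the Il15 relation to muscle was above 0 without passing a test. No r was computed within the combination group. There, replicates 1, 2, 3, 4 and 6 had muscle scores of 10.95, 11.15, 10.07, 10.19 and 11.21. Their Il15 was 16.32, 14.41, 16.86, 14.89 and 14.85 TPM, so the highest value came with the lowest of these scores. In the other groups the values were as follows. r was 0.31 in controls, 0.44 with propionate and 0.42 with butyrate (exact permutation p = 0.569, 0.363 and 0.406, n = 6 each), and rho was 0.31, 0.60 and 0.60 (exact permutation p = 0.564, 0.242 and 0.242). Centred on group means, r was 0.28 over 23 libraries (permutation p = 0.269) and 0.47 with combination replicate 5 (permutation p = 0.0218), a value that fell to 0.33 without that library and propionate replicate 3. The centred value over 23 libraries was 0.43 without its farthest 2, control replicate 2 and propionate replicate 3. Scaling changed the picture in the Wt1-low set: with median-of-ratios scaling r was 0.75 (permutation p = 0.0031), where both quantities are divided by the same library factor. The part that this shared factor plays was not tested.

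**Figure D2:**
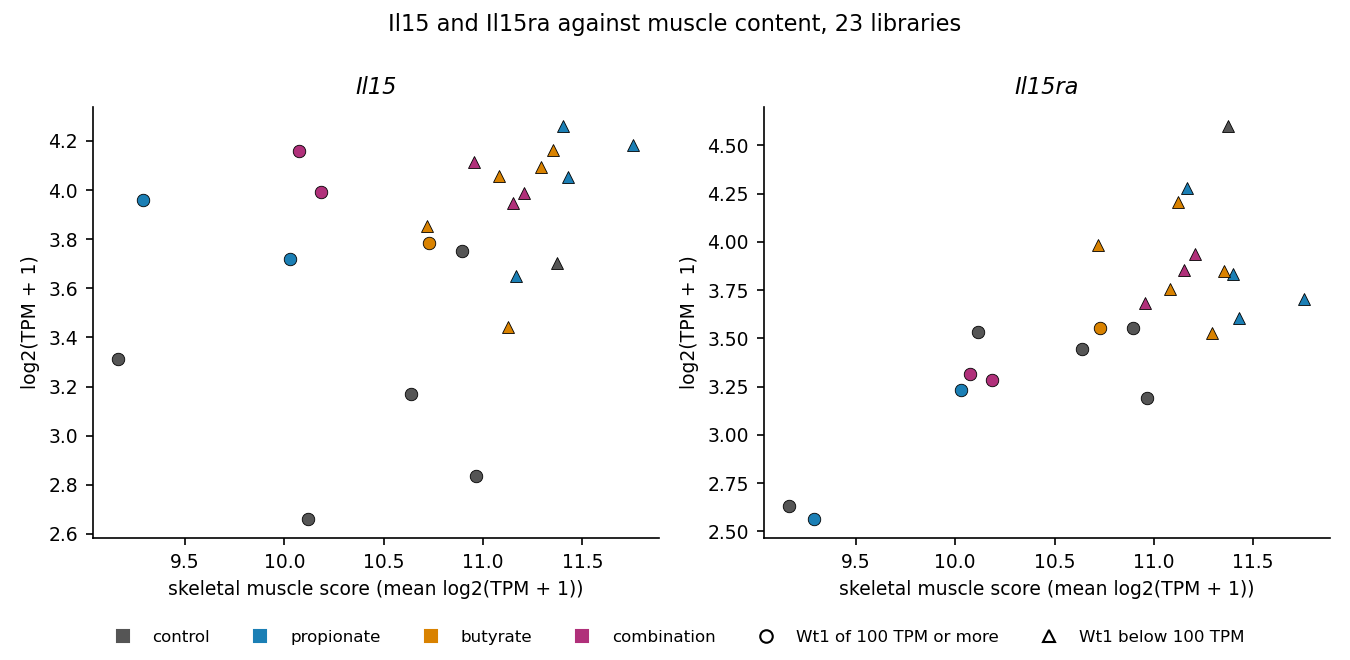
Il15 (left) and Il15ra (right) as log2(TPM + 1) on the y axis against the skeletal muscle score on the x axis in 23 libraries, coloured by group, with circles for Wt1-high and triangles for Wt1-low libraries. Il15 has r = -0.21 with the score in the Wt1-high set and 0.36 in the Wt1-low set, and control replicates 3 and 4, at 12.02 and 12.5 TPM, lie within the range of treated libraries, while 2 libraries of least muscle, control replicate 2 and propionate replicate 3, have the lowest Il15ra.

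Other marker scores did not track Il15 past the adjustment either: 0 of 12 passed in each set. The closest were the T cell score in the Wt1-high set (r = 0.67, adjusted permutation p = 0.0992; rho 0.61) and the fibroblast score in the Wt1-low set (r = -0.66, adjusted permutation p = 0.0535; rho -0.69). In the Wt1-high set the T cell score and the treatment groups moved together, since the 4 propionate and combination libraries there had the highest T cell scores. The part of T cell content in the Il15 values was not tested.

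The genes whose TPM ranked most like Il15 over all 24 libraries were Klhl38 (Spearman's rho 0.78), 1810014B01Rik (0.76), Gm29216 (0.74), Fbxo32 (0.72) and Gpc3 (0.69). Fbxo32 encodes atrogin-1, a ubiquitin ligase of muscle wasting, and averaged 24.9 ± 12 TPM (SD, n = 6) in controls against 46.3 ± 23.5 with propionate, 40.9 ± 14.6 with butyrate and 30.1 ± 12.8 with the combination (34.7 ± 6.67 without combination replicate 5). Gpc3 encodes glypican 3, a cell-surface proteoglycan. None of the other members ranked near Il15: rho with Il15 was 0.07 for Il15ra, -0.34 for Il2rb and -0.46 for Il2rg, and 0.14, -0.28 and -0.42 over the 23 libraries without combination replicate 5. Over those 23, rho with the 5 leading genes was 0.67 to 0.76. These ranks describe the libraries, which also share group and tissue content.

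Il15 was spread over 10 transcript rows of the table, which carry the gene name only. The most abundant row held 37.6% of the gene's mean TPM, at 2.20 to 9.26 TPM, and the second held 23.2%, at 0 to 7.80 TPM. A further row was at 4.36 TPM in 1 propionate library and listed at 0 in the other 23, and another was at 0 throughout. The leading row averaged 3.42 TPM in controls, 4.58 with propionate, 5.31 with butyrate and 6.33 with the combination. Its share of Il15 was 41.4 ± 15.3% in controls, 31.8 ± 11.03% with propionate, 38.8 ± 9.80% with butyrate and 44.9 ± 14.0% with the combination (SD, n = 6). No share differed from control (two-sided exact permutation p = 0.232, 0.74 and 0.706; adjusted p = 0.812 for each over 12 shares). Both leading rows averaged above control in all 3 treated groups.

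Il15ra, the chain that presents the cytokine, overlapped the controls in every treated group. It ran from 5.20 through a median of 10.2 to 23.2 TPM in controls and from 4.92 through 11.6 to 18.4 TPM with propionate. With butyrate Il15ra ran from 10.5 through 13.0 to 17.5 TPM, and with the combination from 8.75 through 12.7 to 25.8 TPM. Of 18 treated libraries 1 lay above the highest control. That library was combination replicate 5, without which the combination mean was 11.5 ± 2.55 TPM instead of 13.9 ± 6.27.

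The Il15ra contrasts with control were 0.05 ± 0.30 for propionate, 0.32 ± 0.30 for butyrate and 0.31 ± 0.30 for the combination (limma, adjusted p = 0.925, 0.415 and 0.663). None of the 3 receptor chains passed in any of these contrasts, and neither did any other gene: 0% of 15163 passed in each of the 3, with 1451, 5506 and 1562 at an unadjusted p under 0.05. The 95% intervals were -0.57 to 0.66 for propionate, -0.30 to 0.94 for butyrate and -0.31 to 0.93 for the combination. With weights estimated per library the propionate contrast was 0.39 (limma, adjusted p = 0.03). In that weighted contrast 11434 of 15163 genes passed, 1431 of them higher. The Il15ra interaction was -0.06 ± 0.42 (limma, adjusted p = 0.918). Without combination replicate 5 the combination contrast was 0.12 and the interaction -0.24 (limma, adjusted p = 0.812 and 0.641).

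The balance of ligand and presenting chain was also set out as a ratio of TPM. The median of Il15 over Il15ra was 0.78 in controls (0.50 to 1.72), 1.41 with propionate (0.63 to 2.96), 1.22 with butyrate (0.57 to 1.53) and 1.22 with the combination (0.37 to 1.89). The ranges overlapped, and without combination replicate 5 the combination median was 1.38 (1.04 to 1.89). TPM is scaled by transcript length, so this ratio compares levels of the 2 genes, and it was not tested because Il15 entered the choice of genes.

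Il15ra differed between the tissue sets, which were defined from these same libraries. It was 8.63 ± 2.11 TPM in the 10 Wt1-high libraries (4.92 to 10.7) and 14.3 ± 3.51 TPM in the 13 Wt1-low libraries (10.5 to 23.2), and the sets overlapped only between 10.5 and 10.7 TPM. Of the 6 controls, the single Wt1-low library, replicate 3, held the highest Il15ra, at 23.2 TPM. With the Wt1 set as a factor, all 3 contrasts with control turned below 0, at -0.34, -0.20 and -0.21, and none passed (limma, adjusted p = 1.00, 0.893 and 0.793).

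Il15ra and the muscle score were related in the Wt1-high set with r = 0.82 (adjusted permutation p = 0.0258) but rho was 0.58 (adjusted permutation p = 0.213). Without control replicate 2 and propionate replicate 3, the libraries of least muscle, r was 0.24, and with either of them left out alone it was 0.72 and 0.74. With median-of-ratios scaling r was 0.88, and 0.55 without the same 2. Centred on group means over 23 libraries, which mixes both tissue sets, r was 0.77 (permutation p = 0.00042; rho 0.66, permutation p = 0.00256), 0.58 without those 2 and -0.18 with combination replicate 5. In the Wt1-low set r was -0.13 (permutation p = 0.654; rho -0.24).

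Of 12 marker scores, 3 passed with Il15ra in the Wt1-high set and 0 in the Wt1-low set. Besides muscle these were the epithelium and carcinoma score (r = -0.81, adjusted permutation p = 0.0157; rho -0.73, adjusted permutation p = 0.0892) and the mesothelium score (r = -0.77, adjusted permutation p = 0.0293; rho -0.70, adjusted permutation p = 0.125). Without their farthest 2 libraries r was -0.72 and -0.77. The genes that ranked most like Il15ra over the 24 libraries were Repin1 and Prodh (rho 0.86 each), Myh11, the smooth muscle myosin (0.85), Paqr9 (0.85) and Shank3 (0.85). Without combination replicate 5 these rho values were 0.83 to 0.89, and those with Il2rb and Il2rg went from -0.42 and -0.38 to -0.61 and -0.57. Il15ra had 18 transcript rows, and the leading row held 32.2% of its mean TPM, with no share differing from control.

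Il2rb, the signalling chain found on NK and CD8 T cells, was the scarcest of the 4 and reached 1 TPM in 13 of 24 libraries. In controls Il2rb ran from 0.14 through a median of 1.29 to 1.90 TPM. It ran from 0.15 through 0.72 to 3.78 TPM with propionate and from 0.13 through 0.74 to 1.06 TPM with butyrate. In the combination libraries it ran from 0.22 through 3.39 to 20.98 TPM. All 6 butyrate libraries lay below the control median, 2 propionate libraries lay above every control, and 4 of 6 combination libraries did.

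Il2rg, the common gamma chain found on most lymphocytes and also on myeloid cells, had the highest mean and median of the 4 genes over 24 libraries, at 26.8 and 17.1 TPM. The mean includes combination replicate 5, at 232 TPM. In the Wt1-low set Il2rg was not the highest, with a mean of 12.3 TPM against 14.8 for Il15 and 14.3 for Il15ra. In controls Il2rg ran from 10.7 through a median of 17.9 to 23.6 TPM. It ran from 5.81 through 10.1 to 34.1 TPM with propionate, from 4.4 through 14.1 to 17.6 TPM with butyrate and from 12.8 through 31.8 to 232 TPM with the combination. Of the 6 combination libraries 4 lay above every control, and 0 butyrate libraries did. With propionate 2 libraries lay above and 3 below the control range.

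The combination means rest in part on 1 library. Combination replicate 5 held 20.98 TPM of Il2rb and 232 TPM of Il2rg, along with 67.3 TPM of the CD8 T cell gene Cd8a. With it, Il2rb averaged 5.58 ± 7.70 TPM and Il2rg 60.3 ± 84.9 TPM (SD, n = 6). Without it, Il2rb averaged 2.498 ± 1.69 TPM and Il2rg 25.9 ± 11.6 TPM (SD, n = 5), against control means of 1.19 ± 0.62 and 18.1 ± 4.53 TPM.

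In the contrasts with control, Il2rb differed by -0.02 ± 0.49 with propionate, -0.39 ± 0.49 with butyrate and 1.03 ± 0.49 with the combination (limma, adjusted p = 0.982, 0.549 and 0.481). Il2rg differed by -0.42 ± 0.53, -0.56 ± 0.53 and 0.95 ± 0.53 (limma, adjusted p = 0.601, 0.428 and 0.516). None passed, and at an unadjusted p under 0.05 only the combination contrast of Il2rb was counted. In that contrast 6.2% of all genes lay above control at an unadjusted p under 0.05. Left without combination replicate 5, the combination contrasts were 0.56 for Il2rb and 0.41 for Il2rg (limma, adjusted p = 0.537 and 0.597). Both acids' contrasts turned above 0 with the Wt1 set as a factor over 23 libraries, at 0.55 and 0.37 for Il2rb and 0.15 and 0.20 for Il2rg, and none passed (limma, adjusted p = 1.00, 0.824, 1.00 and 0.939). With weights estimated per library, Il2rb fell by 0.86 with propionate and Il2rg by 1.11 with propionate and 0.76 with butyrate (limma, adjusted p = 0.00525, 0.00112 and 0.0245). Passing was not particular to these chains. In the weighted propionate contrast 11434 of the tested genes passed, 10003 of them lower, and with butyrate 10256 passed, 9298 of them lower. Propionate replicates 3 and 4, which lay above every control for both chains, had weights of 0.127 and 0.181. The part of these weights in the calls was not tested.

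Against each acid alone, the combination libraries held more of both chains without passing the test. Combination minus butyrate was 1.42 ± 0.49 for Il2rb and 1.51 ± 0.53 for Il2rg (limma, adjusted p = 0.317 for both), with the combination library higher in 31 and 30 of 36 pairs. Combination minus propionate was 1.05 ± 0.49 and 1.37 ± 0.53 (limma, adjusted p = 0.557 and 0.532; higher in 27 and 31 of 36 pairs), where 0% of genes passed. At an unadjusted p under 0.05 both chains were counted in both contrasts, as were 14.6% of all genes above butyrate and 8.43% above propionate. Most genes pointed this way, 81.6% of them above 0 against butyrate and 76.9% against propionate. Butyrate minus propionate was -0.37 ± 0.49 and -0.14 ± 0.53 (limma, adjusted p = 1.00 for both), with 0% of genes passing there too. Without combination replicate 5, combination minus butyrate was 0.95 for Il2rb and 0.97 for Il2rg (limma, adjusted p = 0.681 for both), and combination minus propionate 0.57 and 0.83 (limma, adjusted p = 1.00 for both). With weights estimated per library, combination minus propionate was 1.20 and 1.44 (limma, adjusted p = 0.00789 and 0.00496). In that weighted contrast 5026 of the tested genes passed, 4818 of them higher.

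The interaction was 1.44 ± 0.69 for Il2rb and 1.93 ± 0.75 for Il2rg (limma, adjusted p = 0.139 and 0.128), with 0% of genes passing, 34.8% above 0 at an unadjusted p under 0.05, and 83.7% above 0. Without combination replicate 5 these were 0.97 and 1.39 (limma, adjusted p = 0.216 and 0.198). The calls depended on the libraries and their weighting. Without propionate replicate 3 the Il2rg interaction was 2.13 (limma, adjusted p = 0.0402), and 5631 of the tested genes passed. With weights estimated per library the interaction was 1.77 for Il2rb and 2.20 for Il2rg (limma, adjusted p = 0.0005 and 0.000124), and 10982 genes passed.

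**Figure D3:**
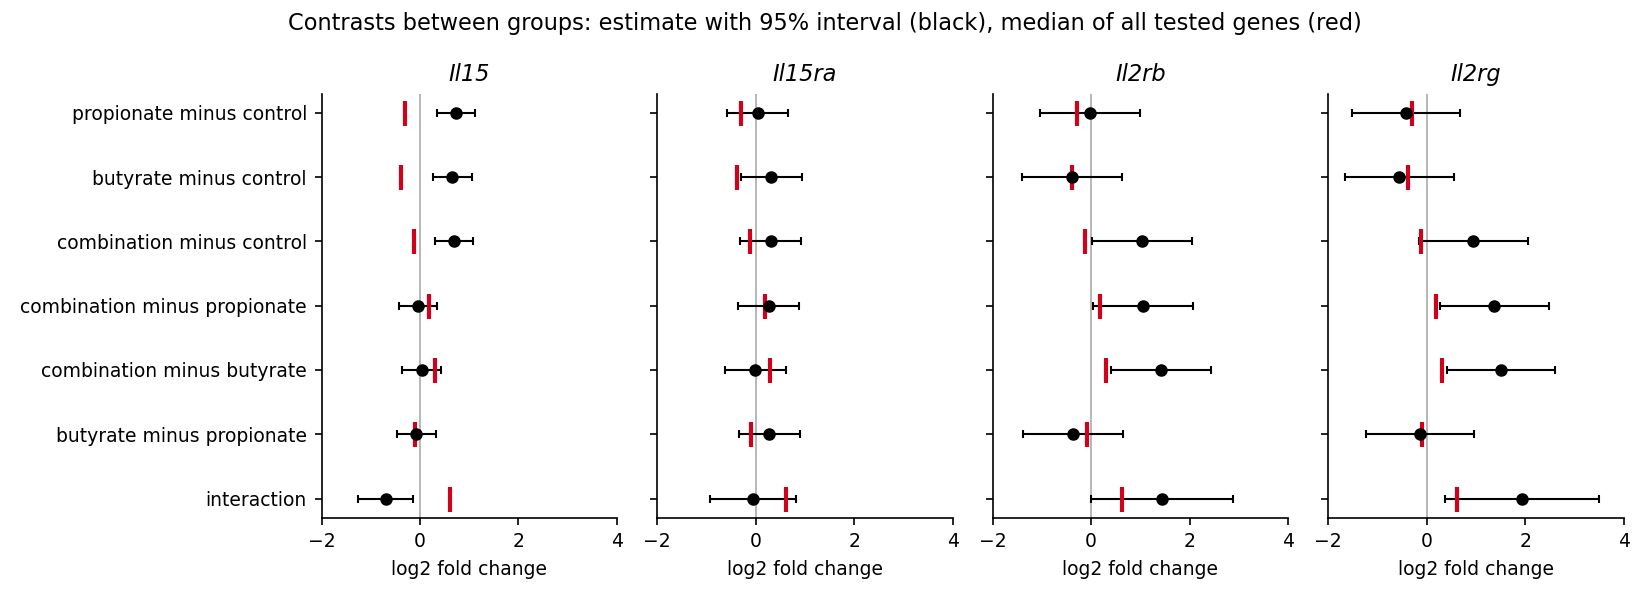
Log2 fold change (x axis) of each gene in 7 contrasts (rows), with points for the limma estimate and bars for its 95% interval; red ticks mark the median of all tested genes in the same contrast. The Il15 estimates of 0.66 to 0.73 against control lie right of red ticks at -0.38 to -0.12, and the widest intervals belong to Il2rb and Il2rg.

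Il2rb followed lymphocyte genes closely in both tissue sets. Its r with the T cell score was 0.98 in the Wt1-high set and 0.94 in the Wt1-low set, and with the NK and cytotoxic lymphocyte score 0.96 and 0.99 (adjusted permutation p = 0.00032, 0.00032, 0.00288 and 0.00032). The corresponding rho values were 0.99, 0.93, 0.88 and 0.94 (adjusted permutation p = 0.00048, 0.00072, 0.0148 and 0.00048). Without the 2 farthest libraries r was 0.96, 0.87, 0.93 and 0.97. In the Wt1-low set these relations rest on scarce values, since Il2rb ran there from 0.13 through a median of 0.34 to 2.86 TPM. Of the 14 NK and cytotoxic genes listed, 7 were too scarce to be tested, among them Ncr1, Klrb1c and Prf1, so that score rests on the other 7. The 5 genes most like Il2rb were Cd5 (rho 0.99), Gimap3, Serpina3f and Skap1 (0.98 each) and Cd3g (0.97), of which Cd5 and Cd3g are T cell surface genes.

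Il2rg was related to both myeloid and lymphoid scores. In the Wt1-high set its r was 0.86 with the macrophage score, 0.93 with the dendritic cell score, 0.94 with the NK score and 0.92 with the T cell score (adjusted permutation p = 0.00597, 0.00373, 0.00352 and 0.00384). In the Wt1-low set these were 0.83, 0.90, 0.77 and 0.75 (adjusted permutation p = 0.00373, 0.00096, 0.0112 and 0.0157). By rank, the macrophage and dendritic values also passed in that set (rho 0.87 and 0.93), while the NK and T cell values did not (rho 0.64 and 0.66, adjusted permutation p = 0.0892 and 0.0743). Without the 2 farthest libraries, r for these 8 relations was 0.55 to 0.88. Of 12 scores, 4 passed in the Wt1-high set and 9 in the Wt1-low set. In the latter these included the fibroblast score (r = 0.72, adjusted permutation p = 0.0234; rho 0.90), the endothelium score (0.80, adjusted permutation p = 0.00597; rho 0.80) and also the epithelium and carcinoma score (0.82, adjusted permutation p = 0.00384; rho 0.76).

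Il2rg had lower values in the Wt1-low set, at 12.3 ± 6.27 TPM (SD, n = 13) against 25.0 ± 8.19 in the Wt1-high set (n = 10), the reverse of Il15ra. In the Wt1-low set its r with the muscle score was -0.59 (adjusted permutation p = 0.099) and rho was -0.75 (adjusted permutation p = 0.027), with r = -0.63 without the farthest 2. In the Wt1-high set r was -0.30 (permutation p = 0.39). The genes most like Il2rg were Rassf5, Sash3, Hcls1, Lcp1 and Gpsm3 (rho 0.98 each), of which Hcls1 and Lcp1 encode actin-binding proteins of blood cells. Il2rb and Il2rg ranked with each other at rho 0.89, and 0.87 without combination replicate 5. Of their 2 and 4 transcript rows, the leading rows held 92.2% and 82.8% of the gene's TPM, with no share differing from control.

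**Figure D4:**
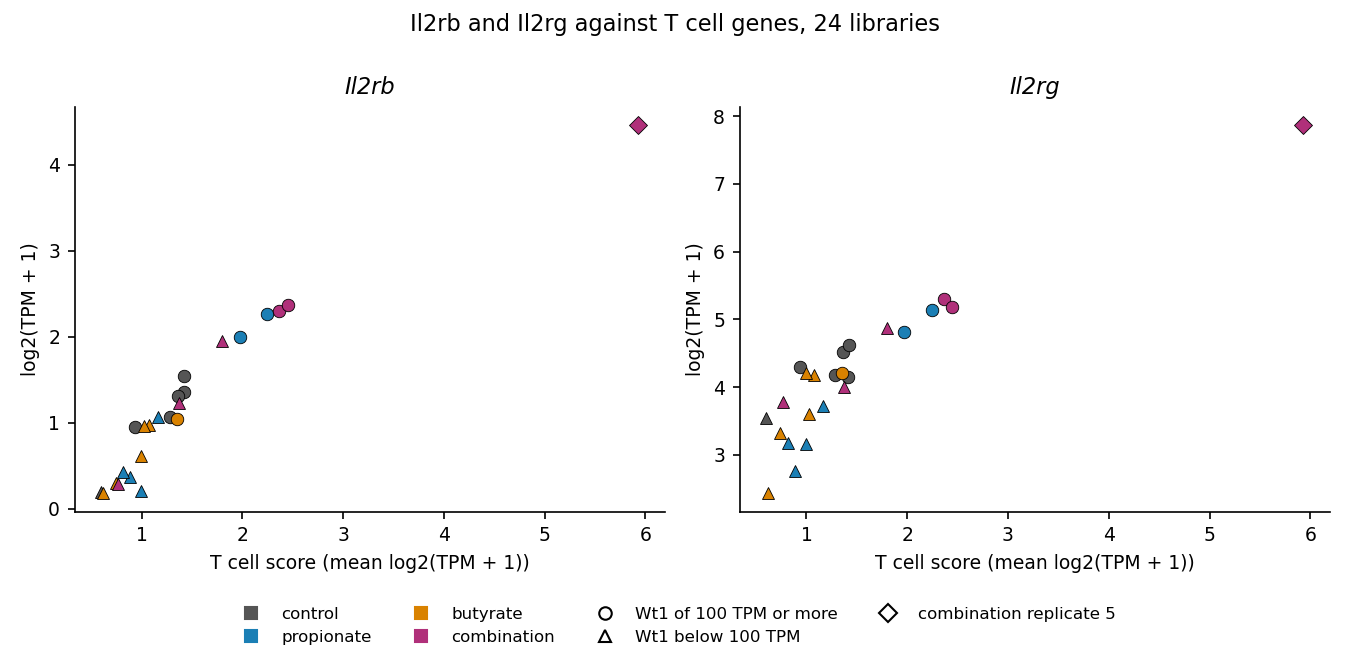
Il2rb (left) and Il2rg (right) as log2(TPM + 1) on the y axis against the T cell score on the x axis in 24 libraries, coloured by group. The diamond at a T cell score of 5.93 is combination replicate 5; in the others Il2rb rises with the score with r = 0.98 among circles (Wt1-high) and 0.94 among triangles (Wt1-low).

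Within the 10 Wt1-high libraries, the 5 treated ones held 3.18 ± 1.26 TPM of Il2rb against 1.39 ± 0.38 in the 5 controls, and 30.5 ± 8.25 TPM of Il2rg against 19.6 ± 3.01. The treated library was higher in 21 and 22 of 25 pairs. The butyrate library in that set lay near the controls, at 1.06 and 17.6 TPM. The T cell score moved with these values, and its part in them was not tested.

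Other genes of the pathway gave 0 that passed in any of the 7 contrasts. The other cytokines of the common gamma chain, Il2, Il4, Il7, Il9 and Il21, were all below the level for testing. Il7, a stromal cytokine for lymphocytes, was the most abundant, at 0.35 to 7.11 TPM, and Il9 was listed at 0 in all libraries. Il2 was at 0 to 0.21 TPM. Il15 was the only cytokine of the family that passed the filter for testing.

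Among the partner receptor chains, 4 of 5 were tested and 3 of these lay above control with the combination, with a median of 0.60 against -0.12 for all genes. Il7r, the interleukin 7 receptor, differed by 1.06 ± 0.53 (limma, adjusted p = 0.495) and Il2ra, the inducible interleukin 2 receptor chain, by 0.57 ± 0.29 (limma, adjusted p = 0.506). The list's median was 0.15 without combination replicate 5, with Il7r at 0.40 and Il2ra at 0.28 (limma, adjusted p = 0.54 and 0.555). With butyrate all 4 lay below control. The 12 signalling genes had 10 below control with propionate and 11 with butyrate, at medians of -0.40 and -0.49 against -0.30 and -0.38 for all genes. Akt1, a kinase of the survival branch, lay at -0.48 ± 0.23 and -0.61 ± 0.23 (limma, adjusted p = 0.333 and 0.115), and Stat3 at -0.81 ± 0.36 and -0.84 ± 0.36 (limma, adjusted p = 0.333 and 0.118). With the combination 6 of the 12 lay above control, Stat5a at 0.44 ± 0.23 (limma, adjusted p = 0.51). It was 3 of the 12 without combination replicate 5, with Stat5a at 0.15 (limma, adjusted p = 0.574).

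Of 6 feedback inhibitors of the pathway, 1 lay above control with propionate, 0 with butyrate and 3 with the combination (2 without combination replicate 5), and none passed. Their medians were -0.44, -0.43 and -0.02, against -0.30, -0.38 and -0.12 for all genes. Cish, which is induced by Stat5 and restrains the receptor, averaged 8.34 ± 3.14 TPM in controls and 4.28 ± 1.22, 6.68 ± 4.75 and 3.95 ± 0.99 TPM with propionate, butyrate and the combination. Its contrasts were -0.78 ± 0.29, -0.40 ± 0.29 and -0.87 ± 0.29 (limma, adjusted p = 0.333, 0.298 and 0.301), the last being -0.90 without combination replicate 5. All 5 genes listed as survival and growth targets lay below control in all 3 contrasts, with medians of -0.70, -1.04 and -0.38 (-0.49 for the combination without replicate 5). The list is mixed, since 1 of its genes, Bcl2l11, promotes cell death, so these counts do not describe survival genes alone. Over all genes, 20.7%, 21.2% and 34.1% lay above control, so most genes lay below it too. Myc was the lowest with butyrate, at -1.71 ± 0.64 (limma, adjusted p = 0.115).

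The 4 transcription factors known to act on Il15 lay below control with propionate and with butyrate, where 20.7% and 21.2% of all genes lay above it. Their medians were -0.67 and -1.01, against -0.30 and -0.38 for all genes. With the combination 2 of 4 lay above control, and 1 of 4 without combination replicate 5. Irf1, which drives Il15 after interferon, averaged 35.99 ± 12.2 TPM in controls, 30.2 ± 22.5 with propionate, 19.5 ± 6.71 with butyrate and 54.2 ± 29.7 with the combination (45.2 ± 22.4 without combination replicate 5). Of 8 other factors secreted by muscle, 6 were tested and 4 lay above control in each contrast. Their medians were 0.19, 0.22 and 0.13, against -0.30, -0.38 and -0.12 for all genes. The 20 genes of the muscle score had 19, 20 and 0 above control in these contrasts, at medians of 0.33, 0.51 and -1.38. The part of muscle content in the values of the secreted factors was not tested. Ostn, which encodes the muscle peptide musclin, lay at 0.82 ± 0.59, 1.21 ± 0.59 and 0.47 ± 0.59 (limma, adjusted p = 0.376, 0.141 and 0.741). All 6 secreted factors lay above control with the combination once its replicate 5 was left out, at a median of 0.37 against -0.18 for all genes. Ostn was then at 1.03 (limma, adjusted p = 0.537).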

How the data were processed

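RNA of 24 peritoneum samples was sequenced as stranded libraries of polyadenylated RNA, per the labels' protocols. The submitters' processing notes name fastp, HISAT2, StringTie and the build mm39. Neither their versions and settings nor the annotation are stated in the labels used here. The authors deposited 1 table of TPM for 149132 transcripts. TPM keeps no depth, so sequencing depth is unknown and no counting interval is given. TPM was summed by gene name (1001 transcripts had none), and genes with at least 1 TPM in at least 6 libraries were tested as log2(TPM + 1), which understates changes of scarce genes. All 24 libraries entered 1 fit in limma 3.58.1 (R 4.3.3; trend and robust moderation; two-sided; Benjamini-Hochberg over 15163 genes; threshold 0.05; 95% intervals on 20 residual degrees of freedom). The fit was also run on simulated data, in which genes varied independently and libraries had no tissue split and no outlying library. That run therefore does not cover these features of the real libraries.

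Relations over libraries used Pearson's r and Spearman's rho with 100000 two-sided permutations (Python 3.11.15, numpy 2.4.6), and exact enumeration for 6 libraries. Transcript shares were compared over all 924 arrangements of 6 against 6, whose smallest p is 0.00216. The 4 genes, the marker and pathway lists and the Wt1 split were chosen with earlier results of these data known. All 4 genes are named. Of each list up to 4 tested genes of smallest p could be named, and of each member the 5 genes of highest rho. Alternatives were another pseudocount, other filters, median-of-ratios scaling, library weights, blocks by replicate number, the muscle score as covariate and leaving out each library. The Wt1 set as a factor was added after seeing the data. Most controls were Wt1-high and most treated libraries Wt1-low, so this factor and treatment could not be fully separated.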

Additional observations from a re-analysis of the deposited data

Results flagged for a closer look

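In 5 of 16 combinations of gene and group, 1 library stood apart from the other 5, its gap to the nearest of them being over 0.625 of the group's range (Dixon's 95% value for 6 libraries). Chance flags about 1 in 20 groups. Of these, 4 were combination replicate 5, with Il15 lowest of its group at 9.55 TPM, and Il15ra, Il2rb and Il2rg highest at 25.78, 20.98 and 232.31 TPM. The fifth was control replicate 3, with 23.24 TPM of Il15ra, which was the only control of the Wt1-low set.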

How the results depend on the processing

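Across settings other than leaving out a library, 211 fold changes of the 4 genes were counted as unchanged, 22 as reversed, 9 as newly past the threshold and 3 as moved. Across single libraries left out these were 643, 28, 1 and 0. Unchanged meant the same direction and call, except for the Il15 contrasts given without p. Those were counted by staying within the pooled SD of Il15 inside groups, with no check of direction. Among them, with a library left out, combination minus propionate ran from -0.10 to 0.068 and butyrate minus propionate from -0.14 to 0.018. No Il15 contrast with control changed direction in any of these settings. A filter of 5 TPM removes Il2rb. Where a reversal is listed the cause was not tested.

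The number of genes called, 0 throughout, became 11434, 10256, 5786, 5026, 572 and 10982 with library weights (propionate, butyrate and combination minus control, combination minus propionate, combination minus butyrate, interaction), which gave combination replicate 5 and propionate replicate 3 the lowest weight, 0.126 and 0.127. For combination minus control scaling by median of ratios gave 35 and the Wt1 factor 12. Leaving out a library gave 0 to 5657 genes for butyrate minus control (without control replicate 3), 0 to 5631 for the interaction (without propionate replicate 3), 0 to 2 for combination minus control and 0 to 1 for combination minus butyrate.

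Replicate numbers did not pair the libraries: 16 of 36 same-numbered pairs by title and 18 of 27 by library number had correlated deviations over 0.1, and a library's best match was its own number in 12 of 72 and 11 of 54 checks. A replicate block by title left every count at 0 and Il15 at 0.73, 0.66 and 0.69 against control. The block by library number gave 7903 genes for butyrate minus control, 5 for combination minus butyrate and 5426 for the interaction. It also gave Il15 combination minus butyrate -0.013, Il15ra -0.14 (propionate minus control), 0.081 (combination minus butyrate) and 0.22 (interaction), Il2rb propionate minus control 0.014 and the Il2rg interaction 2.11 (limma, adjusted p = 0.0321).

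Median-of-ratios scaling, which brings the median of all genes to near 0, gave Il15 1.06 for propionate and 1.06 for butyrate minus control, -0.28 for combination minus butyrate and -1.34 for the interaction, and Il2rb 0.092 for propionate minus control. Library weights gave Il15ra 0.39 (propionate minus control, now past the threshold), -0.045, 0.017 and -0.062 (combination minus propionate, combination minus butyrate, butyrate minus propionate). They gave Il2rb -0.86 (propionate minus control), 1.20 (combination minus propionate) and 1.77 (interaction), all past the threshold, and 0.29 for butyrate minus propionate. They gave Il2rg -1.11 and -0.76 (propionate and butyrate minus control), 1.44 (combination minus propionate) and 2.20 (interaction), all past the threshold, and 0.36 for butyrate minus propionate. The muscle score as covariate gave Il2rb propionate minus control 0.089. The Wt1 factor gave Il15ra -0.34, -0.20 and -0.21 against control and 0.33 for the interaction, Il2rb 0.55 and 0.37 for propionate and butyrate minus control, and Il2rg 0.15 and 0.20 for the same and 0.054 for butyrate minus propionate.

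With a library left out, Il15 combination minus butyrate was -0.057 to 0.14, Il15ra -0.13 to 0.27 (propionate minus control), -0.20 to 0.094 (combination minus butyrate) and -0.28 to 0.12 (interaction), Il2rb propionate minus control -0.26 to 0.15, and Il2rg -0.34 to 0.13 (butyrate minus propionate) and 1.39 to 2.21 (interaction).

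For the muscle score, Il15 in the Wt1-high and Wt1-low sets gave r = 0.042 and 0.75 with median-of-ratios scaling, and 0.47 over all libraries centred on group means. Il15ra in the Wt1-low set gave 0.23 with that scaling and 0.0013 when rescaled without mitochondrial and muscle genes, and -0.18 over all centred libraries. Il2rg in the Wt1-low set gave -0.50 with summed muscle TPM and -0.67 to -0.56 with a library left out. Leading transcript shares with a library left out, in percentage points from control, ran from -5.94 to 1.78 and -0.23 to 7.83 for Il15 (butyrate, combination), -0.50 to 5.17, -8.11 to -4.93 and -2.42 to 0.46 for Il15ra (propionate, butyrate, combination), -0.52 to 10.1 and -0.29 to 5.98 for Il2rb (butyrate, combination), and -0.81 to 3.90 and -1.16 to 3.56 for Il2rg (propionate, combination). With transcripts above 0.1 TPM only, the Il15ra share with the combination was 0.38 above control.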
